A study of Mus musculus with 13 samples.

Results

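The hypoxia-inducible factor (HIF) subunits and the enzymes that sense oxygen for them were followed as 10 listed genes, Hif1a, Epas1, Hif3a, Arnt, Arnt2, Egln1, Egln2, Egln3, Vhl and Hif1an. Each symbol matched 1 row of the 37636 genes in the deposited table of brain expression, and all 10 passed the filter on low values. Membership follows from the symbol alone, and the list was drawn up with earlier results of these data known. The 13 libraries came from brain of male Balb/c mice of 6 to 8 weeks. They comprised 4 libraries of the normal condition without 6-OHG (Con), 5 after 24 h at 8000 m without 6-OHG (Mod) and 4 after 24 h at 8000 m with 6-OHG (6-OHG). 6-OHG is a compound named in the labels by this code, with no dose, and no group received it at the normal condition. The brain region and the way altitude was produced are not stated in the sources used here, and nothing in the labels says that libraries of a group are separate animals, so p-values may measure technical spread.

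HIF is a pair of proteins, an alpha subunit that is destroyed in the presence of oxygen and a beta subunit (ARNT or ARNT2) that is not. With oxygen, the EGLN prolyl hydroxylases mark the alpha subunit, VHL binds the mark and brings a ubiquitin ligase that sends the subunit to the proteasome, and HIF1AN hydroxylates an asparagine that keeps coactivators away. Because this control acts on protein, the transcript levels given here do not measure how much HIF protein was present. EGLN1 and EGLN3 are themselves known as HIF targets, which makes them a feedback arm of the pathway.

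Levels are FPKM, a fragment count scaled by gene length and library size, and so may be set beside each other between genes. A change is 1 group's mean log2(FPKM + 1) minus the other's, and the added 1 shrinks the fold of a gene with a low level. A gene rose or fell when its adjusted p in limma was under 0.05, with Benjamini-Hochberg adjustment over all 13905 genes whose mean reached 1 FPKM. Depth is unknown because the table holds no read totals. The FPKM columns summed to between 268208 and 312908. Neuron markers, which define the labelled tissue, summed to 946 to 1097 FPKM in Con, 956 to 1018 in Mod and 927 to 1101 in 6-OHG over 9 genes, none of them at 0. Of the marker lists for other tissue, 5 of 5 liver genes tested fell and 3 of 6 hypothalamus genes tested rose in Mod against Con. Of oligodendrocyte precursor markers 3 of 5 fell and of microglia markers 2 of 8, and 0 of either list rose. Over all genes tested 14.0% rose and 9.81% fell. Of the liver genes, Apoa1, Apoa2 and Fabp1 passed the filter through Con, the group where they are high. They stood at means of 4.57, 6.68 and 4.15 FPKM in Con and 0.869, 0.826 and 0.539 in Mod.

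In Mod against Con 3 of the 10 genes rose and 0 fell: Hif3a, Egln1 and Egln3. In limma 4 of the 10 had an unadjusted p under 0.05. Over all genes tested 23.8% were called, 14.0% higher and 9.81% lower, so 3 of 10 is near that background. The groups did not overlap for the same 3 genes, against 22.4% of all genes tested (13.5% higher and 8.87% lower). The median change of the 10 genes was 0.03, against 0.01 for all genes tested. The other 7 genes lay between -0.24 and 0.11 and did not pass the test.

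Upstream sequence is shown for the 3 genes that rose, since HIF binds a short core written ACGTG or GCGTG. It comes from the RefSeq table of GRCm38.p6, in which 9 of the 10 members had an entry and Epas1 did not. The 250 bases before each start site were searched on both strands for ACGTG and GCGTG, and matches on either strand are in capitals. For Egln1 the 70 bases nearest the start are left out because the gene annotation places an exon there.
Hif3a upstream, chr7:17062428-17062677, minus strand: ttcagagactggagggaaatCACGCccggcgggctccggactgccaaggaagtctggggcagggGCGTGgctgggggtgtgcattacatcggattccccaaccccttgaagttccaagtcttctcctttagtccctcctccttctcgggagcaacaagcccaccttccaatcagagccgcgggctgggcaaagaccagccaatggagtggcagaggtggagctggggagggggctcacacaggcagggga
Egln1 upstream, chr8:124949325-124949504, minus strand: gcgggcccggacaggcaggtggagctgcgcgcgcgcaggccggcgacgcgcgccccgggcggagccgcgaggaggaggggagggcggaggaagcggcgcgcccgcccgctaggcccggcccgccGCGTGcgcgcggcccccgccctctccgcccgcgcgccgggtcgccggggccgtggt
Egln3 upstream, chr12:54203875-54204124, minus strand: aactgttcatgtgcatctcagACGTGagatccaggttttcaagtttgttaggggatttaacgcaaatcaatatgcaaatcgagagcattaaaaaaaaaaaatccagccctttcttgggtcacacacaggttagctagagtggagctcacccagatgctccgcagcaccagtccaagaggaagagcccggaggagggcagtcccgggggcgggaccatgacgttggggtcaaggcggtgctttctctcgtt
The Egln1 stretch that is left out holds 1 further match, given with 10 bases on each side. Matches in Hif1a and Egln2, whose levels did not pass the test in any comparison, are given for contrast. For Egln2, which has 2 start sites, only the ACGTG match is shown. The window of its first start site also held 3 GCGTG matches, and that of its second held 1. The Hif1a window and the second Egln2 window lie inside the annotated genes. They precede the RefSeq start site used here, not the annotated gene start.
Egln1 site, chr8:124949308-124949332, minus strand: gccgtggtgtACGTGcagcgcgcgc
Hif1a site, chr12:73907722-73907747, plus strand: cacagacaagCACGTGagcggggcag
Hif1a site, chr12:73907787-73907811, plus strand: gctgagagcaACGTGggctggggtg
Egln2 site, chr7:27166836-27166860, minus strand: cctcctgtcaACGTGcggttcgcgc
ACGTG stood in 4 of the 9 members (Hif1a, Egln1, Egln2 and Egln3), against 16.6% of 32851 upstream windows of the same length in the table. GCGTG stood in 4 (Hif3a, Arnt, Egln1 and Egln2), against 28.2%. The longer match in Hif1a is the palindrome CACGTG, which reads as ACGTG on both strands and counts as a pair of overlapping matches. The 3 genes that rose did not share a core, as Hif3a held GCGTG alone and Egln3 ACGTG alone, and Egln2 held both cores without a called change. A match describes letters only and is not evidence of binding.

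Among the alpha subunits the genes differed in how they moved. Hif3a (ENSMUSG00000004328, chromosome 7 from 17031507 to 17062427 on GRCm38, minus strand, protein coding) encodes the alpha subunit with the least activating capacity, some of whose splice forms inhibit the other 2. It stood at 0.356, 0.540, 0.542 and 0.693 FPKM in the 4 Con libraries. In Mod it stood at 5.04, 3.20, 4.88, 4.38 and 3.42 FPKM in replicates 1 to 5, and with 6-OHG at 3.53, 6.21, 3.60 and 2.91 in replicates 1 to 4. Every library from altitude lay above every Con library, and the lowest of them was more than 4 times the highest Con value. The mean rose from 0.533 ± 0.138 to 4.18 ± 0.837 FPKM (SD, n = 4 and 5), a ratio of 7.86, with a log2 change of 1.75 (SE 0.16, adjusted p = 1.99e-05). By size this was rank 27 of the 13905 genes tested. Since the Con mean is under 1 FPKM, Hif3a passed the filter through the groups where it is high. With no filter its change was also 1.75 (adjusted p = 0.000113), and with a pseudocount of 0.1 in place of 1 it was 2.76. The values are per gene, so splice forms of Hif3a could not be told apart.

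Hif1a (ENSMUSG00000021109, chromosome 12 from 73901375 to 73947530, plus strand) encodes the alpha subunit best known for acute hypoxia and for glycolytic targets. It stood at 14.5, 12.2, 14.4 and 15.3 FPKM in Con and at 14.0, 11.3, 12.9, 13.4 and 14.4 in Mod, and the groups overlapped. The change of -0.09 did not pass the test (95% interval -0.27 to 0.09, adjusted p = 0.482). An antisense gene, Gm15283, shares 330 exon bases with Hif1a at a mean of 0.316 FPKM, and the strand setting of the counting is not stated. Gm49321, a protein-coding gene on the same strand, shares 148 exon bases, so reads there cannot be assigned by strand. Epas1 (ENSMUSG00000024140, chromosome 17 from 86753700 to 86833410, plus strand) encodes HIF-2 alpha, which in brain is known from endothelial cells, pericytes and astrocytes. Its Con libraries held 11.7, 13.7, 14.0 and 13.2 FPKM and its Mod libraries 15.1, 13.1, 12.3, 11.8 and 13.1. These ranges overlapped, with a change of -0.01 (95% interval -0.19 to 0.16, adjusted p = 0.940).

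The make-up of the alpha transcripts differed between groups as well. Hif3a made up 1.91% ± 0.432 of the summed FPKM of the 3 alpha genes in Con, 13.7% ± 2.25 in Mod and 12.6% ± 2.91 with 6-OHG (SD, n = 4, 5 and 4). The share of Hif1a was 50.7% ± 3.64, 43.4% ± 2.51 and 50.4% ± 3.06 in the same order, and that of Epas1 47.4% ± 3.48, 42.9% ± 2.95 and 37.0% ± 2.66. Hif1a and Epas1 were close to equal in Con, with a ratio within a library of 0.891 to 1.24, and the ratio was 0.867 to 1.13 in Mod. With 6-OHG it was 1.16 to 1.52, so that every 6-OHG library lay above every Mod library and overlapped Con. Shares and ratios are descriptions and were not tested.

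**Figure D1:**
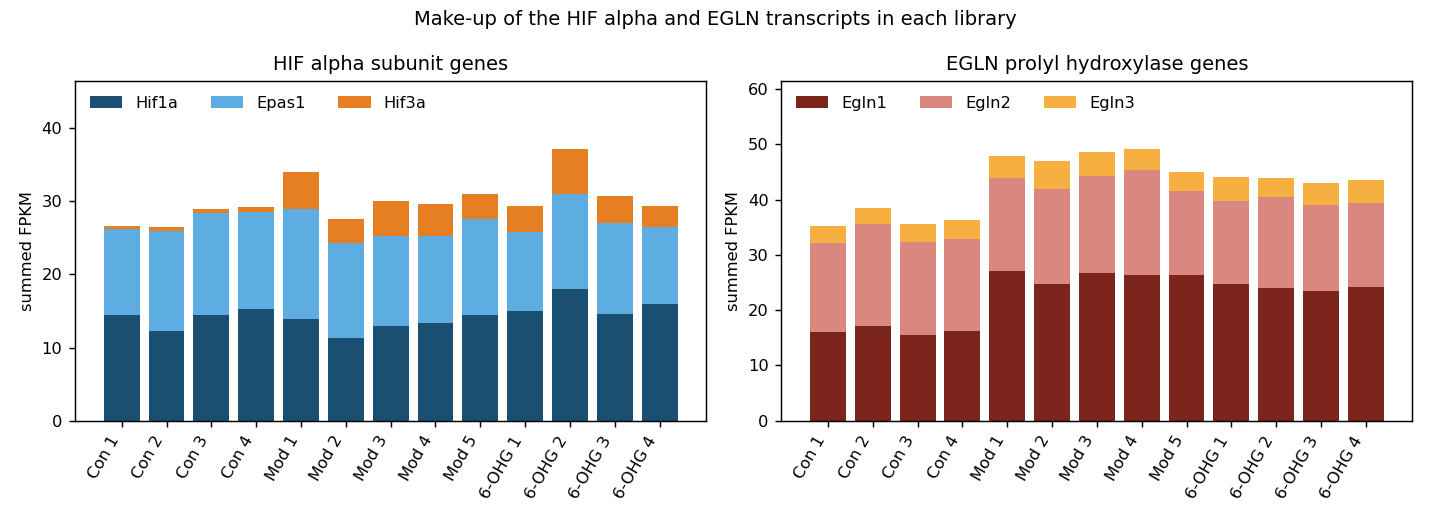
Summed FPKM (vertical axis) of the 3 HIF alpha genes (left) and the 3 EGLN genes (right) in each of the 13 libraries, with colours for the genes. The Hif3a segment is thin in the 4 Con bars and makes up 11.0% to 16.2% of the Mod bars, and the Egln1 segment is taller in all 9 bars from altitude.

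The beta subunit genes did not pass the test in any comparison. Arnt2, the form enriched in neurons, was the most abundant of the 10 genes in every group and stood at 8.37 ± 1.201 times Arnt in Con. Arnt2 stood at 44.8, 48.8, 43.5 and 32.9 FPKM in Con and at 38.2, 36.8, 32.3, 37.5 and 33.3 in Mod. Of the Con libraries only replicate 4 fell within the Mod range. The change was -0.24 (95% interval -0.47 to -0.0041, adjusted p = 0.132), and without Con replicate 4 it was -0.35 and passed (adjusted p = 0.0115). Con replicate 4 had the lowest sums of neuron (946 FPKM) and striatum markers (259 FPKM) of the Con libraries, whose other members reached 1078 to 1097 and 349 to 459. Their part in the Arnt2 level was not tested. Arnt, the widely expressed partner, stood at 5.07 ± 0.339 FPKM in Con and 5.56 ± 0.345 in Mod (change 0.11, 95% interval -0.01 to 0.24, adjusted p = 0.184).

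The prolyl hydroxylase genes moved unequally. Egln1 (ENSMUSG00000031987, chromosome 8 from 124908587 to 124949324, minus strand, protein coding) encodes the main enzyme that marks HIF alpha for VHL. It stood at 16.01, 17.06, 15.6 and 16.2 FPKM in Con and at 27.1, 24.8, 26.8, 26.3 and 26.3 in Mod. No Mod library came near the Con range, and the spread within each group was under 1 FPKM as an SD. The mean rose 1.62 times, from 16.2 ± 0.620 to 26.2 ± 0.902 FPKM (SD, n = 4 and 5), with a log2 change of 0.66 (SE 0.04, adjusted p = 1.47e-06). Of the genes tested 3.27% had a larger change by size.

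Egln3 (ENSMUSG00000035105, chromosome 12 from 54178981 to 54203860, minus strand, protein coding), the enzyme of the family best known for induction by hypoxia in cultured cells, rose less. It stood at 3.09, 2.97, 3.23 and 3.42 FPKM in Con and at 4.05, 4.98, 4.38, 3.83 and 3.55 in Mod. The groups did not overlap, but Mod replicate 5 lay just above the highest Con library. Mean levels were 3.18 ± 0.192 and 4.16 ± 0.551 FPKM (SD, n = 4 and 5), a difference of 0.30 on the log2 scale with an SE of 0.09 (adjusted p = 0.0254). This call was fragile: it ended in 12 of 25 other settings, with adjusted p up to 0.0929, among them the fits without Con replicate 1 (0.0630), 2 (0.0678) or 3 (0.0541) and without Mod replicate 2 (0.0554) or 3 (0.0558), and the change lay between 0.24 and 0.37 in all of them.

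Egln2, the third enzyme, is not known as a HIF target. It stood at 16.2, 18.5, 16.8 and 16.7 FPKM in Con and at 16.7, 17.2, 17.4, 19.1 and 15.2 in Mod, ranges that overlapped almost fully (change 0.00, 95% interval -0.13 to 0.14, adjusted p = 0.970). Egln2 shares 11 exon bases with Cyp2t4 on the other strand, a gene at a mean of 0.520 FPKM.

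Egln1 and Egln2 exchanged places in order of level. Within a library the ratio of Egln1 to Egln2 was 0.923 to 0.989 in Con, 1.38 to 1.73 in Mod and 1.44 to 1.65 with 6-OHG. Egln1 made up 44.5% ± 0.673 of the summed EGLN transcripts in Con and 55.3% ± 2.28 in Mod, while the share of Egln3 was 8.74% ± 0.729 and 8.75% ± 1.150. The sum of the 3 genes was 35.3 to 38.5 FPKM in Con, 45.0 to 49.2 in Mod and 43.0 to 44.1 with 6-OHG.

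Vhl and Hif1an, which act on HIF alpha beside the EGLN enzymes, did not pass the test. Vhl, which recognises hydroxylated HIF alpha, stood at 14.5 ± 1.498 FPKM in Con and 15.0 ± 0.769 in Mod (change 0.06, 95% interval -0.10 to 0.21, adjusted p = 0.614). Hif1an, the asparagine hydroxylase, stood at 6.92 ± 0.600 and 6.30 ± 0.399 FPKM (change -0.12, 95% interval -0.26 to 0.03, adjusted p = 0.224). For both genes the Con and Mod libraries overlapped.

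**Figure D2:**
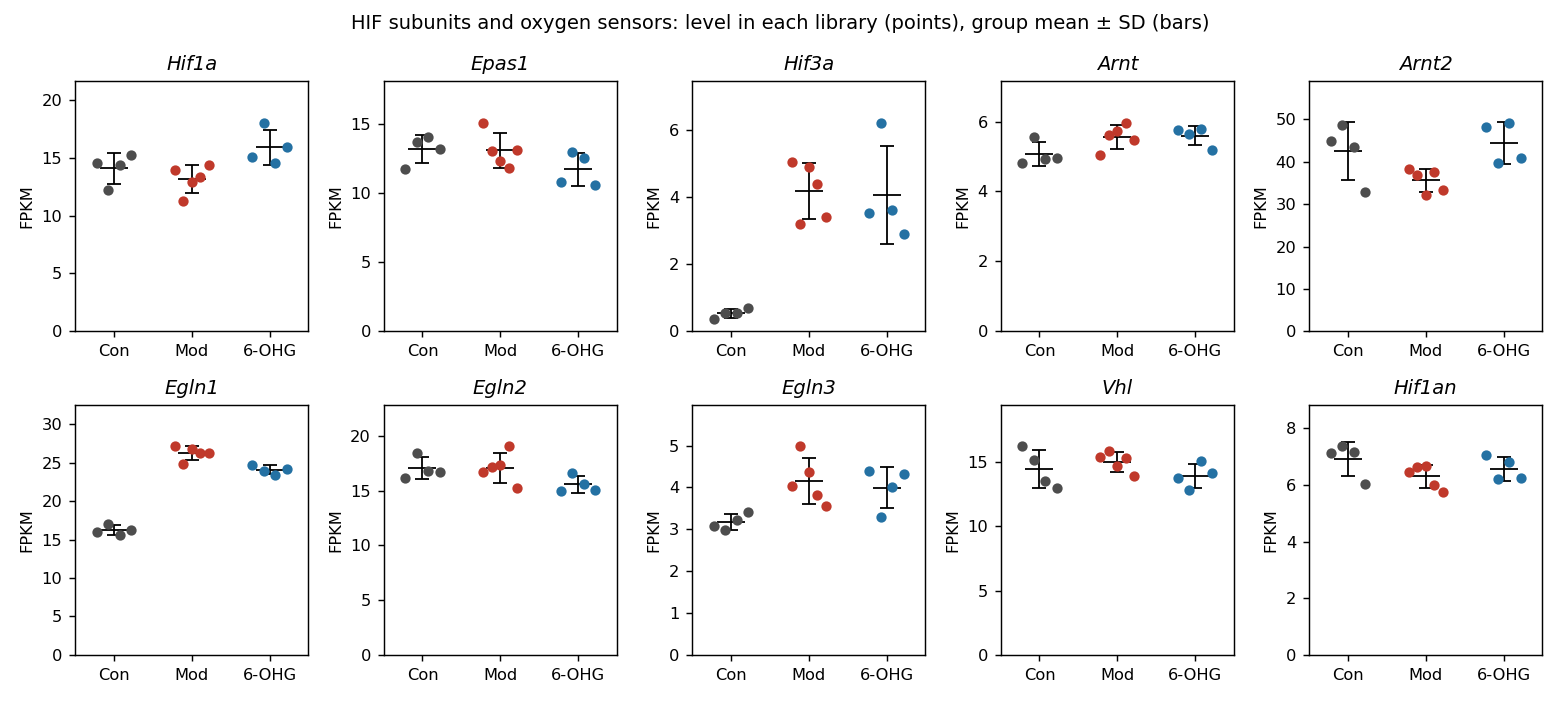
FPKM (vertical axes, each from 0) of the 10 genes in each library of Con, Mod and 6-OHG, with points for libraries and bars for the mean and SD. Hif3a and Egln1 are separated from Con in all 9 libraries from altitude, Egln3 in the 5 Mod libraries, and the other panels overlap between Con and Mod.

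Ordered by mean FPKM, the Con brain held Arnt2 (42.5) above Egln2 (17.0), Egln1 (16.2), Vhl (14.5), Hif1a (14.1) and Epas1 (13.2). Hif1an (6.92), Arnt (5.07), Egln3 (3.18) and Hif3a (0.533) followed. From Egln2 down to Epas1 each gene overlapped the next over the 4 libraries, whereas Arnt2 above and each step from Epas1 down to Hif3a were separated. In Mod the order differed at both ends. Egln1 (26.2) stood alone in second place, and Hif1an, Arnt, Hif3a (4.18) and Egln3 (4.16) each overlapped the next. With 6-OHG the first places were again Arnt2 (44.5) and Egln1 (24.1), each apart from the next.

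In 6-OHG against Mod, which asks what the compound changed at altitude, 0 of the 10 genes rose and 0 fell in limma, while 3 had an unadjusted p under 0.05. Of all genes tested 15.3% were called, 970 (6.98%) higher and 1161 (8.35%) lower. With library trends on exon length and GC removed the calls were 505 higher and 490 lower, and with the replicate block as well 49 and 25. The groups did not overlap for 3 members, against 15.9% of all genes tested (7.60% higher and 8.34% lower), and those were Hif1a, Arnt2 and Egln1. Hif1a stood at 15.07, 18.04, 14.57 and 15.97 FPKM with 6-OHG, all above the highest Mod value of 14.4, with a change of 0.25 (95% interval 0.07 to 0.43, adjusted p = 0.0593). Arnt2 stood at 48.2, 39.7, 49.2 and 40.8 FPKM with 6-OHG, all above the highest Mod value of 38.2, with a change of 0.31 (95% interval 0.08 to 0.54, adjusted p = 0.0690). Both sit at the edge of the threshold, and each was called in 6 of 26 other settings. FPKM rescaled to equal sums gave 0.35 for Hif1a (adjusted p = 0.0346) and 0.41 for Arnt2 (0.0466). With the same trends removed the values were 0.17 (0.153) and 0.26 (0.156). Leaving out a single library brought a call for Hif1a without Con replicate 2 (0.0450) and for Arnt2 without Con replicate 4 (0.0205), libraries outside this comparison that enter through the shared spread. The highest Hif1a level was that of 6-OHG replicate 2. Without that library the change was 0.19 for Hif1a (adjusted p = 0.131 in limma) and 0.36 for Arnt2 (0.0511).

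Egln1 stood lower with 6-OHG than in Mod in all 4 libraries, at 24.7, 23.9, 23.4 and 24.2 FPKM. The highest of these was just under the lowest Mod library, and the change of -0.12 did not pass (95% interval -0.22 to -0.02, adjusted p = 0.0892). It was -0.0217 with FPKM rescaled to equal sums, -0.0204 with the length and GC trends removed and -0.0187 with the block as well. Hif3a stood at 4.06 ± 1.47 FPKM against 4.18 ± 0.837 in Mod (change -0.06, 95% interval -0.41 to 0.30, adjusted p = 0.849), and Egln3 at 4.00 ± 0.499 against 4.16 ± 0.551 (change -0.04, 95% interval -0.23 to 0.14, adjusted p = 0.780). An effect of 6-OHG on Hif3a within that interval was not detectable here. Epas1 stood at 10.8, 12.9, 12.5 and 10.5 FPKM with 6-OHG and overlapped Mod (change -0.15, adjusted p = 0.235). Egln2 (-0.12), Vhl (-0.10), Hif1an (0.05) and Arnt (0.01) had adjusted p of 0.206, 0.356, 0.635 and 0.946 in limma.

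In 6-OHG against Con 2 of the 10 genes rose and 0 fell, against 30.7% of all genes tested, 16.3% higher and 14.4% lower. The groups did not overlap for 2 members, against 28.1% of all genes tested (15.6% higher and 12.5% lower). This comparison shares its Con libraries with Mod against Con, so the values are given side by side and are not independent. Hif3a was 1.69 higher (SE 0.17, adjusted p = 4.82e-05), beside 1.75 in Mod. Egln1 was 0.54 higher (SE 0.05, adjusted p = 1.18e-05), beside 0.66. Egln3 was at 0.25 beside 0.30 and just missed the threshold (adjusted p = 0.05225): 6-OHG replicate 2, at 3.29 FPKM, fell within the Con range and the other 3 libraries, at 4.00 to 4.39, lay above it. Without 6-OHG replicate 2 Egln3 passed (change 0.33, adjusted p = 0.0153), and it also passed without Mod replicate 2 (0.0364) or Mod replicate 5 (0.0444), which are in neither group and enter through the shared spread. In all Egln3 passed in 8 of 25 other settings, among them a pseudocount of 0.1 (0.0492), equal sums (0.0390), the length and GC trends removed (0.0375) and sample weights (0.0118). The remaining 7 genes lay between -0.16 and 0.16.

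**Figure D3:**
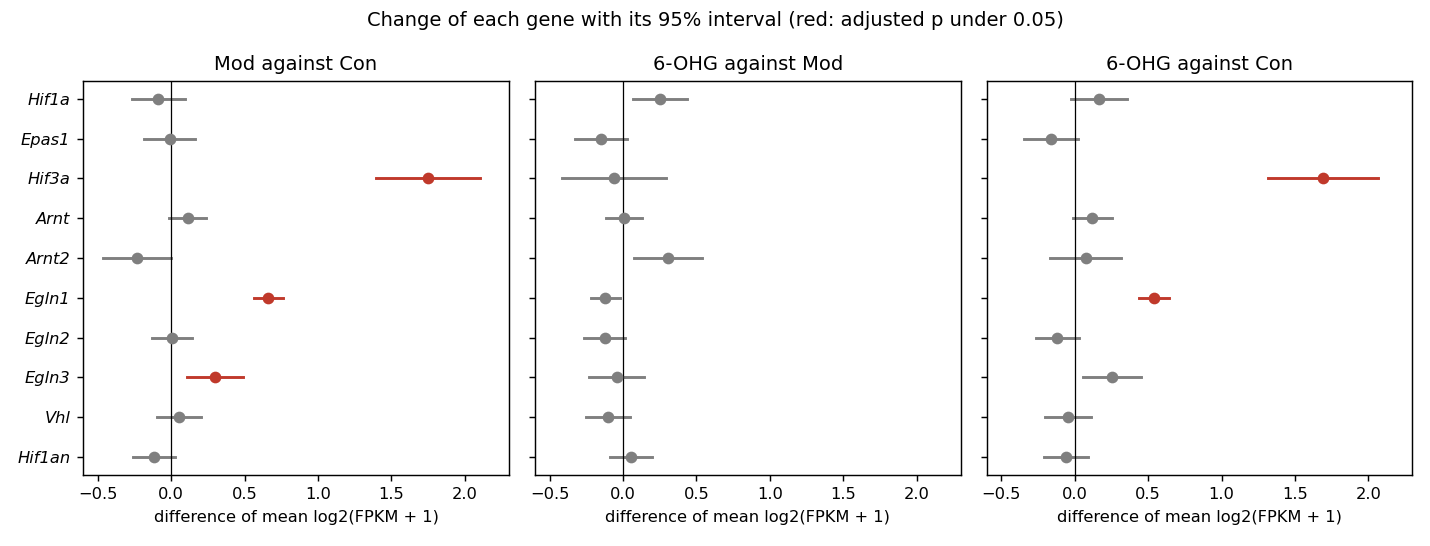
Difference between group means of log2(FPKM + 1) for each gene (points) with its 95% interval (lines) in the 3 comparisons, in red where the adjusted p is under 0.05. Hif3a at 1.75 and 1.69 and Egln1 at 0.66 and 0.54 stand apart from 0 in both comparisons with Con, and no gene is red in 6-OHG against Mod.

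The genes whose pattern was most like each called member were sought over the 13 libraries by Pearson's r of log2(FPKM + 1), as a description. The libraries share their groups, so a gene that rose at altitude can have a high r through the groups alone. Hif3a was closest to Fkbp5 (0.984), a regulator of the glucocorticoid receptor, Plin4 (0.984), a lipid droplet protein, and Sult1a1 (0.976), a sulfotransferase. With the group means removed, r was 0.797, 0.799 and 0.780, and the library with the highest Hif3a, 6-OHG replicate 2, was also the highest of the 13 for all 3 genes, with 9.82 FPKM of Fkbp5 and 14.49 of Sult1a1. That library was among the 2 least like their groups. It had the lowest neuron (927 FPKM), striatum (65.1), microglia (63.9) and choroid plexus and ependyma (5.37) marker sums of the 13. Its astrocyte sum, 529 FPKM, lay within the Con range. The part of this library in these r values was not tested. Fkbp5, Plin4 and Sult1a1 stand in the list of glucocorticoid-induced genes, of which 10 of 18 rose and 0 fell in Mod against Con (median 0.66), against 14.0% and 9.81% of all genes tested. That list was chosen with earlier results of these data known and the 3 genes are among those that rose, so the count is no support for the likeness. Plin4, at 0.450 FPKM in Con and 9.14 in Mod, passed the filter through the groups where it is high. Tsc22d3, Sgk1, Nfkbia and Dusp1 were among the listed genes that did not pass.

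Egln1 was closest to Rbm3 (0.986), a cold-inducible RNA-binding protein, Bnip3 (0.986), a mitophagy receptor known as a HIF target, and Plaur (0.986), the urokinase receptor. With group means removed these fell to 0.506, 0.331 and 0.216, so the likeness lay mostly in the difference between groups. Plaur, at 0.213 FPKM in Con and 3.11 in Mod, passed the filter through the groups where it is high. Egln3 was closest to Mtif2 (0.920), a mitochondrial translation factor, Tctn3 (0.887), a ciliary protein, and Gpcpd1 (0.871), a phosphodiesterase. Among the members themselves the highest r was that of Hif3a with Egln1 (0.951), and the lowest that of Hif1a with Vhl (-0.697).

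**Figure D4:**
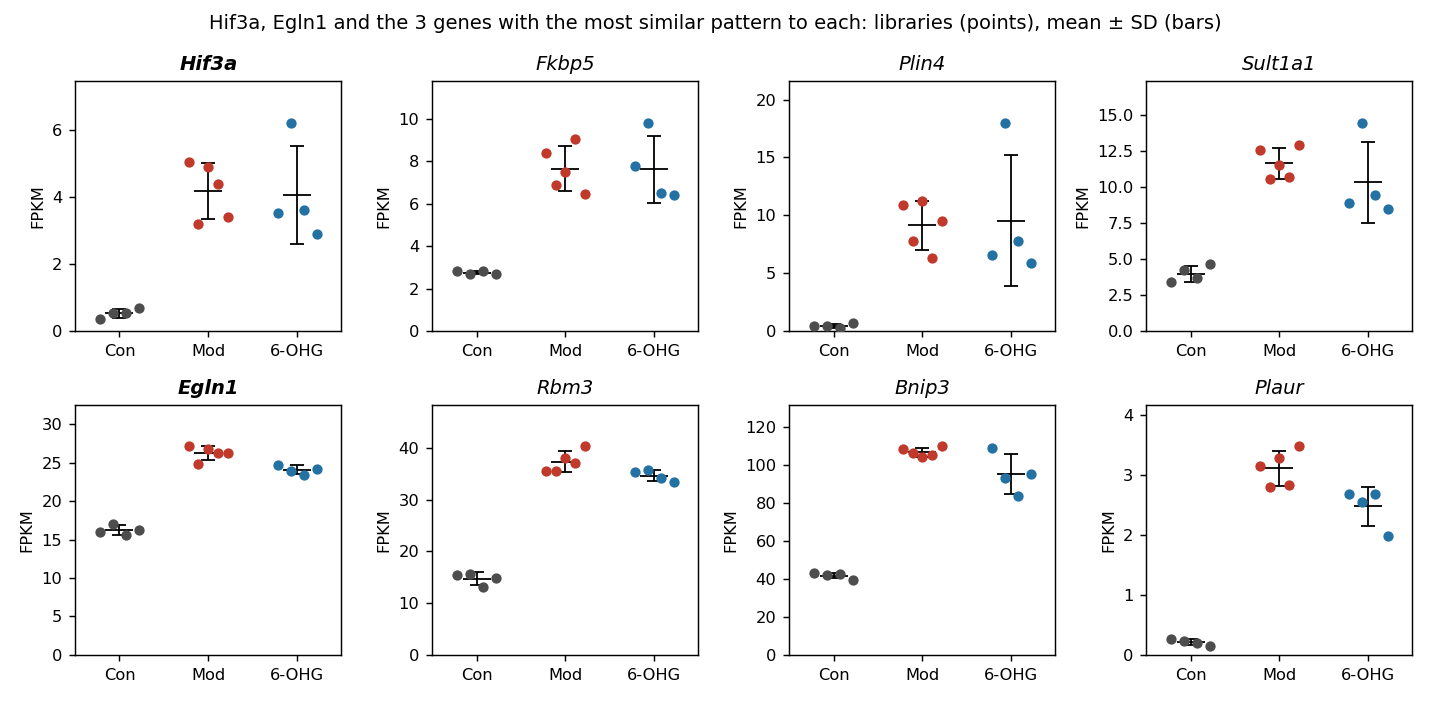
FPKM (vertical axes, each from 0) of Hif3a and Egln1 and of the 3 genes most like each, by library (points) with the mean and SD (bars). In the upper row 6-OHG replicate 2 is the highest library for each gene, with 6.21 FPKM for Hif3a and 9.82 for Fkbp5, and in the lower row Con stands apart from all libraries of altitude.

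The other genes of the pathway were counted by role. In the ubiquitin ligase that VHL directs, 1 of 4 subunit genes rose and 1 fell in Mod against Con, against 14.0% and 9.81% of all genes. Eloc, an adaptor subunit, rose from 29.1 ± 1.9 to 34.1 ± 0.708 FPKM (0.23, adjusted p = 0.0251 in limma), and Cul2, the scaffold, fell from 14.8 to 11.9 FPKM (-0.29, adjusted p = 0.0124). Elob, the partner of Eloc, fell with 6-OHG against Mod from 36.7 to 25.0 FPKM (-0.54, adjusted p = 0.00100), the 1 called subunit of 4 there.

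Of 7 coactivators and competitors for their binding, 3 rose and 0 fell in Mod against Con, with a median of 0.22, against 14.0% and 9.81% of all genes tested. Cited2, which competes with HIF alpha for the coactivators and is known as a HIF target, rose from 9.12 to 12.7 FPKM (0.44, adjusted p = 0.0146). The coactivator gene Crebbp rose by 0.27 (adjusted p = 0.00416) and Cited1 by 0.71 (0.0116), from 0.767 to 1.83 FPKM. Cited1 passed the filter on low values only through Mod, the group where it is high, so its place among the 3 is no support for the count. In 6-OHG against Mod 3 of the 7 rose and 0 fell, against 6.98% and 8.35% of all genes tested: Ncoa1 (0.49), Ep300 (0.33) and Ncoa2 (0.34). Over all genes tested, the calls there went from 970 higher and 1161 lower to 505 and 490 with the length and GC trends removed. With the replicate block as well they were 49 and 25. Whether the calls of these 3 genes, of Elob above and of Stub1 and Rack1 below held in those settings is not given here.

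Of 17 factors that act on the stability of HIF protein 4 rose and 1 fell in Mod against Con, against 14.0% and 9.81% of all genes tested, with a median of -0.03. The number that rose was 0 with FPKM rescaled to equal sums and with the replicate block. Among them Mdm2 (0.23), Os9 (0.21) and Siah1a (0.19) rose and Usp33 (-0.25) fell. Siah1a encodes a ubiquitin ligase that targets the EGLN enzymes. In 6-OHG against Mod 1 rose and 3 fell (6.98% and 8.35% of all genes), among them Stub1 (-0.37) and Rack1 (-0.29), both linked to degradation of HIF alpha.

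Other bHLH-PAS factors were listed together with the Per genes, whose proteins share the PAS domain but lack the bHLH domain. Of 11 genes tested 2 rose and 1 fell in Mod against Con (median -0.01), against 14.0% and 9.81% of all genes tested. Both that rose were Per genes, Per3 (0.59) and Per1 (0.32), and the clock gene Clock (-0.20) fell. Among 10 other oxygen-dependent enzymes 4 rose and 1 fell (median 0.21), against the same shares. The histone demethylase gene Kdm3a, a known HIF target, rose from 5.51 to 9.68 FPKM (0.71), the DNA dioxygenase gene Tet2 by 0.58 and P4htm, a membrane prolyl hydroxylase, by 0.25. Ado, a thiol dioxygenase that senses oxygen through the N-degron pathway, fell by 0.27.

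Genes that HIF is known to induce were counted as well, though their levels do not measure HIF activity. Ddit4 also stands in the list of glucocorticoid-induced genes. Of 33 tested, 23 rose and 1 fell in Mod against Con (median 0.47), against 14.0% and 9.81% of all genes tested. The summed level of all 35 listed was 993 to 1062 FPKM in Con, 1521 to 1616 in Mod and 1260 to 1420 with 6-OHG, 3 ranges that did not overlap. The whole FPKM columns summed to 282978 to 312908 in Mod and 272992 to 278335 with 6-OHG, which did not overlap either. Aldoa (means of 413, 573 and 464 FPKM in the same order) and Pgk1 (152, 201 and 194) made up a large part of the target sum. The part of either in these ranges was not tested. In 6-OHG against Mod 0 of the 33 rose and 10 fell (median -0.17), against 6.98% and 8.35% of all genes, and the number that fell was 2 to 6 in 3 of 26 other settings. In the same comparison 3 of 6 hypothalamus markers tested fell, Hcrt (-2.30), Pmch (-3.15) and Trh (-1.03), and the sums of all 8 were 68.7 to 125.5 FPKM in Mod and 3.44 to 42.1 with 6-OHG, which did not overlap. Their part in the result was not tested. Fam162a, a mitochondrial protein, went from 15.7 FPKM in Con to 28.8 in Mod and 17.9 with 6-OHG (changes 0.83 and -0.66, adjusted p = 1.57e-05 and 0.00100 in limma). Vegfa, the endothelial growth factor gene, went from 20.5 to 67.0 and 43.9 FPKM (1.67 and -0.60). Egln1, at 16.2, 26.2 and 24.1 FPKM, did not pass in the second of these comparisons. These lists were chosen with earlier results of these data known and are described by counts alone.

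**Figure D5:**
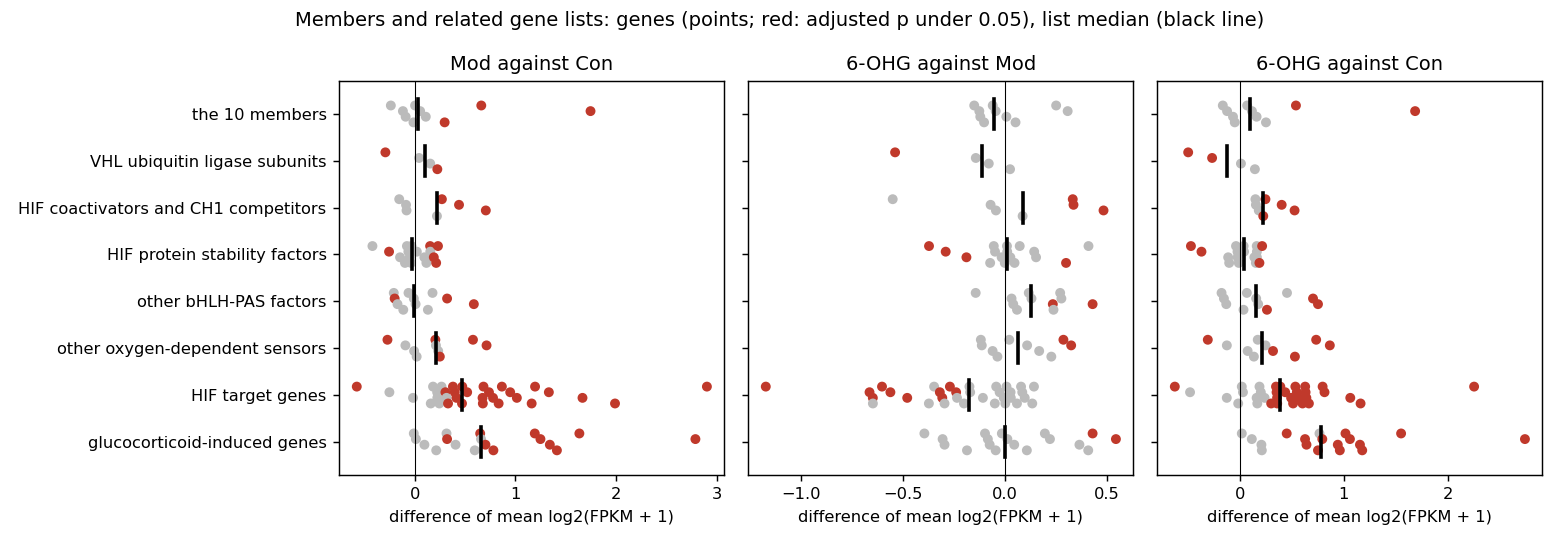
Difference between group means of log2(FPKM + 1) (horizontal axis) for the 10 genes and 7 related lists in the 3 comparisons, with points for genes, red where the adjusted p is under 0.05, and a black line at each median. The medians of the HIF targets (0.47) and glucocorticoid-induced genes (0.66) lie furthest to the right in Mod against Con, and that of the 10 genes lies at 0.03.

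In bulk tissue a change in the share of a cell type and a change per cell cannot be told apart. Of 9 astrocyte markers 0 rose and 2 fell in Mod against Con. Over all genes tested 14.0% rose and 9.81% fell, the shares to set beside this list and the next 2. The astrocyte markers summed to 459 to 555 FPKM in Con, 451 to 534 in Mod and 427 to 534 with 6-OHG. Of 11 endothelial markers tested 5 rose and 3 fell, with sums of all 12 of 78.9 to 97.1, 72.6 to 87.7 and 66.9 to 91.7 FPKM. Pericyte and smooth muscle markers rose in 3 and fell in 2 of 7 cases, with sums of all 8 of 59.1 to 83.5, 57.9 to 70.1 and 52.0 to 66.2 FPKM. The endothelial sum joins genes that moved both ways, as Itm2a fell from 30.6 to 7.07 FPKM while Pecam1, Cldn5, Cdh5, Flt1 and Esam rose. No marker of these 3 lists was at 0. For other lists the Con and Mod sums did not overlap: oligodendrocyte precursor markers summed to 73.0 to 86.1 FPKM in Con and 40.3 to 63.1 in Mod, microglia markers to 97.7 to 110.0 and 78.2 to 92.4, and liver markers to 100.2 to 155.9 and 28.8 to 81.7. Trf, at a mean of 81.7 FPKM in Con and 43.9 in Mod, carried most of the liver sum, so that sum says little about the other liver markers. The part of cell and tissue make-up in the changes of Hif3a, Egln1 and Egln3 was not tested.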

How the data were processed

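The authors deposited FPKM values for 13 brain libraries, 1 column per library. The submitters' processing notes name StringTie 2.1.6, HISAT2 2.2.1 and featureCounts 1.5.0-p3, beside the trimmer cutadapt 1.9, and as builds mm10 and GRCm38, without saying what each was used for. Which of them made the FPKM, the annotation and the strand setting are not given in the sources used here. Reads were pairs of 150 bases from total RNA, per the labels' protocols.

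Symbols were found for 37499 of 37636 gene IDs, and coordinates and exons come from GENCODE M21 on GRCm38. Values were taken as log2(FPKM + 1). A mean of 1 FPKM or more over all libraries was required, which 13905 genes reached. One limma model (version 3.58.1, R 4.3.3) held the 3 group means, with variances shrunk towards a trend with expression, and p-values were adjusted over all of them. In data simulated for Mod against Con on 13905 genes, 70% of the genes raised by 0.5 on the log2 scale and 98% of those raised by 1 were recovered. Of those lowered by 0.5, 62% were recovered, and for 6-OHG against Mod 84% of those raised by 1. Changed genes were drawn only above a floor of expression, so levels as low as that of Hif3a in Con were not covered. Changes smaller than 0.5 were not simulated. Of 26 other settings, 13 left out 1 library each. Genes named beside the members are up to 4 called genes of each list with the smallest p and the 3 genes most like each called member. The members and lists were chosen with earlier results of these data known. Figures were drawn with matplotlib 3.10.9.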

Additional observations from a re-analysis of the deposited data

How the results depend on the processing

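In all settings tried Hif3a and Egln1 kept their rise over Con with an adjusted p under 0.05, in Mod and with 6-OHG, except that Hif3a and Egln3 were not tested with a filter at 5 FPKM, which left 1 gene higher in each comparison with Con. The number of genes higher in Mod against Con was 2 to 3 without single libraries, and that of genes lower, 0, became 1 with sample weights and 2 without Con replicate 4 and 6-OHG replicate 2 together, and was 0 to 1 without single libraries. In 6-OHG against Mod the number higher, 0, became 1 with the 5 FPKM filter, with median-of-ratios scaling, with only the 2 groups compared and when both of these libraries were left out. It was 2 with FPKM rescaled to equal sums, quantile normalization or sample weights, and 0 to 1 without single libraries. In 6-OHG against Con it was 2 to 3 without single libraries. Rescaling to equal sums moved the share of higher genes among all called from 58.7% to 40.6% in Mod against Con and from 45.5% to 77.7% in 6-OHG against Mod.

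Changes near 0 switched sign without passing the test. Epas1 in Mod against Con was 0.0055 with quantile normalization, 0.026 with sample weights and -0.0616 to 0.0209 without single libraries. Egln2 there was -0.0638 with equal sums, -0.0294 with median-of-ratios scaling, -0.0149 with the length and GC trend removed, -0.0039 without the 2 libraries and -0.0328 to 0.0437 without single ones, and Vhl -0.0129 with equal sums. In 6-OHG against Mod, Hif3a was 0.0209 with equal sums and -0.24 to 0.05 without single libraries. Arnt was -0.0875 with the trend removed, -0.0869 with the replicate block and the trend removed, -0.0001 with sample weights and -0.0215 to 0.0374 without single libraries, and Hif1an -0.0035 with the block and the trend removed. Egln2 was 0.0236 with the trend removed. Egln3 was 0.0377 with equal sums, 0.0461 with the trend removed, 0.0268 without the 2 libraries and -0.0879 to 0.0268 without single ones. In 6-OHG against Con, Egln2 was 0.0087 with the trend removed, alone or with the block, and without single libraries Arnt2 was -0.0427 to 0.14 and Vhl -0.0933 to 0.0068. The cause of these shifts was not tested.

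Same-numbered libraries did not deviate together (r of their deviations -0.483 to 0.346), so the numbers are not taken as pairs. With the replicate number as a block, Hif3a stood at 1.80 (adjusted p = 0.00137) and Egln1 at 0.66 (0.000484) in Mod against Con, and Egln3 at 0.34 (0.0523). Depth is unknown, so low values such as Hif3a in Con carry a counting error that could not be given.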
